A study of Homo sapiens with 6 samples.

Results

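The genes described here make thymidylate, carry the one-carbon units it needs and supply the other deoxynucleotides. They are 9 of the 23619 gene symbols listed in each library, taken by name: TYMS, RRM1, RRM2, RRM2B, DUT, SHMT1, SHMT2, MTHFD1 and MTHFD2. All 9 were found in the files, and all 9 were among the 11307 genes with enough signal to be tested (FPKM reaching 1 in 3 or more libraries). FPKM is the number of sequenced fragments per kilobase of transcript, scaled to the number of fragments mapped in the library, so levels of different genes can be set side by side.

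The cells were HG3, an established lymphoblastoid B cell line derived from chronic lymphocytic leukemia. One library of total RNA came from each of 3 control pools, numbered 17, 18 and 28, and one from each of 3 pools resistant to fludarabine, with the same numbers. Values are listed in the order 17, 18, 28 for each group. The study used transposon mutagenesis, in which a mobile element inserts at random sites before cells are selected with the drug, and its design asked whether resistant cells differ from the parental ones across the transcriptome. The titles call the resistant libraries treated, while drug dose and time under drug are not stated in the labels. Nothing in the labels says that the pools were grown apart from the start, so a p-value here reflects only how far these libraries scatter, which may be technical.

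Deoxynucleotides are the building blocks of DNA. Ribonucleotide reductase, a complex of the large subunit RRM1 with the small subunit RRM2 or RRM2B, makes them from ribonucleotides. Thymidylate has a route of its own: the dUTPase DUT yields dUMP, and thymidylate synthase, the product of TYMS, methylates dUMP with a one-carbon unit carried by folate. Serine hydroxymethyltransferases move that unit from serine to folate in the cytosol (SHMT1) and in mitochondria (SHMT2), and the MTHFD enzymes interconvert the folate forms. Fludarabine is a purine nucleoside analogue whose triphosphate is known to inhibit ribonucleotide reductase and DNA synthesis.

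Relative sequencing depth, read from the steps between low values, ranged from 1 in control 17 to 1.30 in resistant 28, and 10936 to 11331 genes per library reached an FPKM of 1. Resistant 18 stood apart from the other libraries: it held the highest of the 6 values for 35.4% of tested genes and the lowest for 25.3%, and a fit that weights libraries by their agreement gave it a weight of 0.162 against 1.03 to 1.93 for the rest. All 8 B cell markers examined were expressed, summing to 4579 to 5063 FPKM in controls and 5075 to 5354 in resistant libraries. Of 13 markers of other cell types, 10 stayed below 1 FPKM in every library, EPCAM was listed at 0 throughout, and their sum was 5.998 to 11.6 FPKM in controls and 4.83 to 8.26 in resistant libraries.

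The stretches before the transcription starts of TYMS, DUT, RRM1 and RRM2 are shown because these 4 genes of DNA precursor supply had unlike values in the resistant pools. The 250 bases before a start come from RefSeq on GRCh38.p14, whereas the submitters' processing notes name hg19 for the libraries. Windows of 7 of the 9 genes are described. Capitals mark matches, on either strand, to the E2F-type letters TTTCCCGC, TTTCGCGC, TTTGCCGC or TTTGGCGC, or to CCAAT, the letters bound by NF-Y. The TYMS window is chr18:657403-657652 on the plus strand.
TYMS: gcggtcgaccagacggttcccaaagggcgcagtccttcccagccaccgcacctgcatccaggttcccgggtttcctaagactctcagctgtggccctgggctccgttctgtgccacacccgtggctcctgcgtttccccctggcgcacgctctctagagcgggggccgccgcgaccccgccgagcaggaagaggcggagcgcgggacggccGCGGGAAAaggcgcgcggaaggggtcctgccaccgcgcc
The DUT window shown, chr15:48331947-48332196 on the plus strand, belongs to one of its 4 RefSeq starts and was chosen because it was the one with a match.
DUT: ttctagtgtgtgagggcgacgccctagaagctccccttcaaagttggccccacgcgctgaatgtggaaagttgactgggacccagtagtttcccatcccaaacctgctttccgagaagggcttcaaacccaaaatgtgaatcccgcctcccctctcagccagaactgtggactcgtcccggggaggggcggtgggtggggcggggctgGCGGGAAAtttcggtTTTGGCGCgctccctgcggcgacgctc
RRM1 has the window chr11:4094435-4094684 on the plus strand.
RRM1: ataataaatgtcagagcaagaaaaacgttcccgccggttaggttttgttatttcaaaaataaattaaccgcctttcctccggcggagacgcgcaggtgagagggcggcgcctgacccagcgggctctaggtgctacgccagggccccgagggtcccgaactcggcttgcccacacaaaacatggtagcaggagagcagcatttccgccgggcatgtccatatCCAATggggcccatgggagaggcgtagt
RRM2 has 2 RefSeq starts, and the window with more matches, chr2:10122489-10122738 on the plus strand, is shown.
RRM2: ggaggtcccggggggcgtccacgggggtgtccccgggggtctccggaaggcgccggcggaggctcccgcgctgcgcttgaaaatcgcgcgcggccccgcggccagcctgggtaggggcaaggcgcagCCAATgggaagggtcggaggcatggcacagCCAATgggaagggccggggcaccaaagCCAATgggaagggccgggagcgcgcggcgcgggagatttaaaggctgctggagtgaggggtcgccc

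An E2F-type match lay in the TYMS window, with its first base 39 bases before the start, and 2 lay in the DUT window, at 42 and 27 bases. None lay in the windows of RRM1, RRM2, SHMT1, MTHFD1 or MTHFD2. Windows on chromosome 8, where RRM2B lies, were left out of the description, and no window of SHMT2 was found. The matches of these genes are therefore not given here. Such a match was present in 4.26% of the 11856 windows of tested genes, and in 13 of 39 windows of S phase genes (33.3%). CCAAT occurred 3 times in the RRM2 window shown and once in that of RRM1, with no match in the TYMS and DUT windows shown, against 33.6% of all windows of tested genes. The CHR letters TTTGAA or TTCGAA, which are not in capitals, had 2 matches in the DUT window shown and 1 in that of RRM1, against 10.3% of windows of tested genes. The C/EBP-ATF letters TGATGNAA had 0 matches in the windows of TYMS, DUT, RRM1 and RRM2, against 1.77%. The matches in capitals did not overlap each other.

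TYMS was lower in every resistant library than in every control. It stood at 45.2, 73.8 and 67.0 FPKM in the control group and at 25.3, 20.0 and 25.1 in the resistant group. The resistant libraries lay close together, at 23.4 ± 2.99 FPKM (SD, n = 3), below the lowest control, and the controls were spread more widely, at 62.0 ± 14.9. The mean was 2.64-fold lower, and the difference on the log2(FPKM + 1) scale was -1.34 (SE 0.23, 95% interval -1.87 to -0.81, not adjusted for the number of genes). This had an unadjusted p of 5.04e-04, the 33rd smallest of 11307 genes, and did not pass after Benjamini-Hochberg adjustment over all tested genes (limma adjusted p = 0.158). Of the 19 alternative settings, it passed in 1, a limma fit with library weights (adjusted p = 0.0321), where 301 of 11307 genes passed.

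By pool, TYMS differed by -0.81 (17), -1.83 (18) and -1.38 (28). Only 2.79%, 1.84% and 1.75% of tested genes had a lower difference in the same pools. Control 17 was itself 0.69 below control 18 on this scale, so the controls differed among themselves by nearly as much as pool 17 differed between groups. Without control 17 the difference was -1.55, and without pool 18 it was -1.10.

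**Figure D1:**
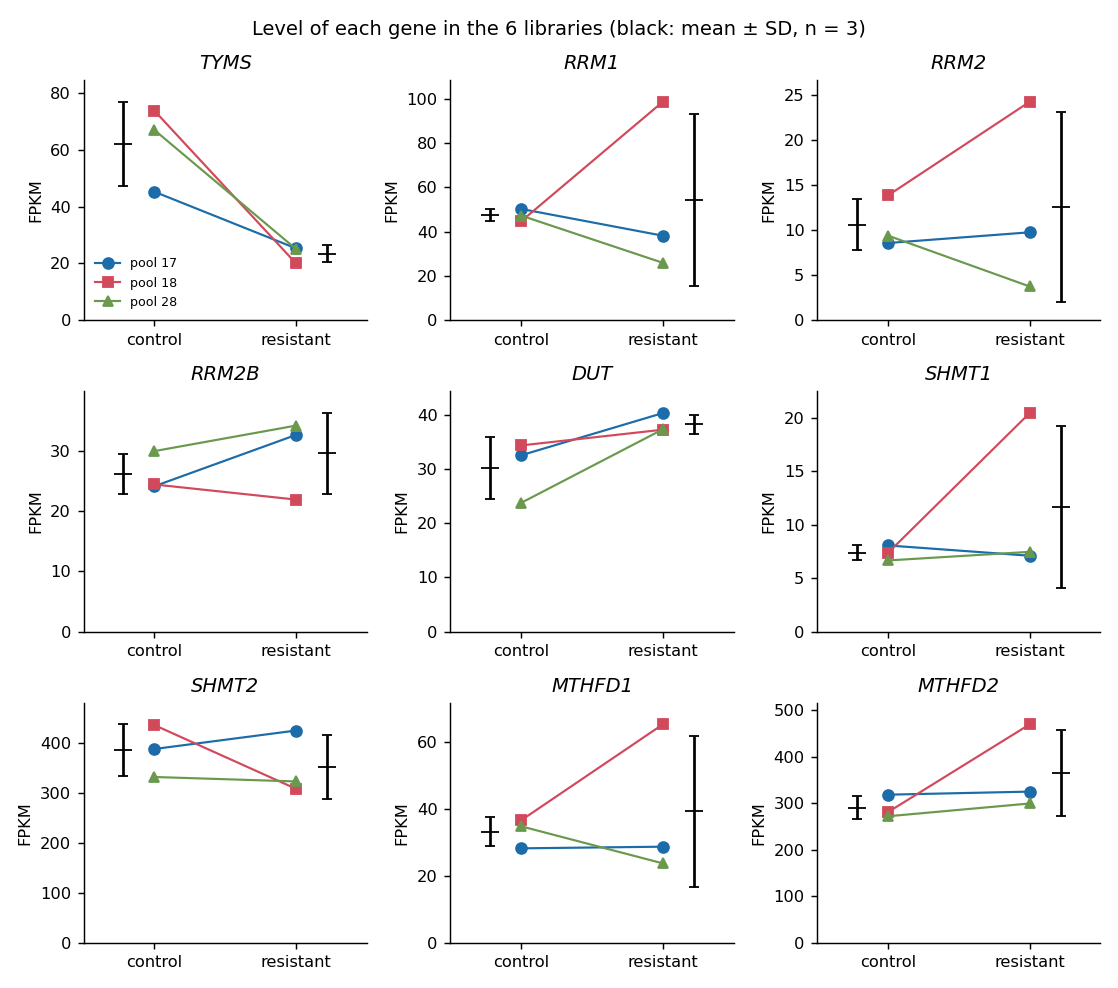
FPKM (vertical axes, from 0) of the 9 genes in each library; lines join the control and resistant library of a pool, and black bars are mean ± SD over 3 libraries. The TYMS values of the resistant libraries lie between 20.0 and 25.3, below all controls, whereas RRM1, RRM2, SHMT1, MTHFD1 and MTHFD2 have their highest value in resistant 18.

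DUT, whose enzyme removes dUTP and provides the substrate of thymidylate synthase, lay the other way, by less. It stood at 32.6, 34.4 and 23.8 FPKM in the control group and at 40.4, 37.4 and 37.4 in the resistant group. Every resistant library was above the highest control, with a ratio of resistant to control as low as 1.08 in pool 18. The log2 difference was 0.35 (SE 0.18, interval -0.09 to 0.78, adjusted p = 0.465), smaller than the gap of 0.51 between controls 18 and 28, and it was 0.19 without control 28. Once trends of GC content and length were removed, DUT differed by 0.34, -0.015 and 0.65 in pools 17, 18 and 28. Of the 9 genes, 1 had all resistant values below the controls, against 11.1% of tested genes, and 1 had all of them above, against 10.1%, so shares of this size are also found among all genes.

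Across the group, 0 of 9 genes passed limma's adjusted threshold of 0.05, where 0.0354% of all tested genes did (4 of 11307). TYMS was the 1 gene with an unadjusted p under 0.05, against 13.1% of tested genes (7.14% lower and 5.99% higher). With library weights 1 of the 9 passed, again TYMS, as did 301 of the 11307 tested genes. The median difference of the 9 genes was 0.10, and that of all tested genes was 0.01. Only TYMS, DUT and MTHFD2 had the same direction in all 3 pools, 3 of 9 against 37.6% of tested genes. TYMS was lower in all pools, as were 18.7% of tested genes, and DUT and MTHFD2 were higher, as were 18.9%. With trends of GC content and length removed, DUT was no longer higher in pool 18 (-0.015).

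**Figure D2:**
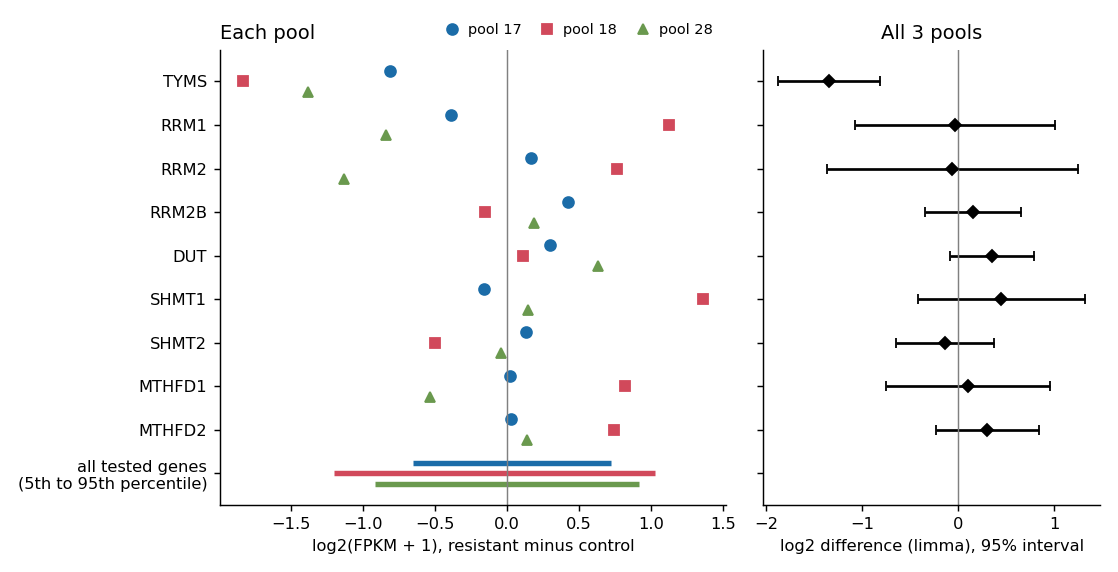
Differences between resistant and control libraries on the log2(FPKM + 1) scale (horizontal axes): left, each pool, with bars for the 5th to 95th percentile of all 11307 tested genes; right, the limma estimate with its unadjusted 95% interval. The TYMS interval is the 1 of 9 that does not reach 0, and RRM1, RRM2 and MTHFD1 lie above 0 in pool 18 and below 0 in pool 28.

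The ribonucleotide reductase subunits RRM1 and RRM2 were high in resistant 18 and low in resistant 28. RRM1, the large subunit that holds the catalytic site, stood at 50.3, 44.7 and 47.3 FPKM in the control group and at 38.2, 98.7 and 25.9 in the resistant group. The controls agreed to within a coefficient of variation of 5.87%, while the resistant values ran from 25.9 to 98.7, on both sides of them. The differences in pools 17, 18 and 28 were -0.39, 1.12 and -0.84, and 96.3% of tested genes had a lower difference in pool 18 but only 6.14% in pool 28. The fit over all pools therefore gave -0.03 with a wide interval of -1.08 to 1.01 (adjusted p = 0.983), which leaves a 2-fold difference in either direction possible.

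RRM2, the small subunit that cycling cells use, stood at 8.58, 13.9 and 9.40 FPKM in the control group and at 9.77, 24.3 and 3.75 in the resistant group. Resistant 18 was 1.75 times the highest control and resistant 28 was 0.437 times the lowest. Its differences by pool were 0.17, 0.77 and -1.13, and over the pools -0.07 (SE 0.56, adjusted p = 0.976). The value over the pools turned above 0 for both genes without resistant 28, to 0.37 for RRM1 and 0.53 for RRM2, and became -0.57 and -0.67 without resistant 18. The value of RRM1 also turned above 0 without control 17, resistant 17 or pool 17 (0.0073, 0.10 and 0.14), and that of RRM2 without control 18 (0.13) or with a pseudocount of 5 (0.012).

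RRM2B, the small subunit induced by p53 and used outside S phase, had values closer together. It stood at 24.1, 24.4 and 29.9 FPKM in the control group and at 32.6, 21.9 and 34.1 in the resistant group, with overlapping groups (0.15, SE 0.21, adjusted p = 0.803). Resistant 18, the library with the most RRM2, had the least RRM2B. The difference was 0.35 without resistant 18 and 0.25 without control 28, and it was 0.038 without resistant 28, 0.070 without resistant 17 and 0.099 without control 17. The ratio of RRM2B to RRM2 within a library, which does not depend on how the library was scaled, was 2.81, 1.76 and 3.18 in controls and 3.34, 0.901 and 9.10 in resistant 17, 18 and 28. RRM2B thus exceeded RRM2 in every library except resistant 18. RRM2 over RRM1 varied less, from 0.171 to 0.310 in controls and 0.145 to 0.256 in resistant libraries.

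Of the 16 tested genes in a list of other p53 targets, 0 passed and 3 had an unadjusted p under 0.05, against 13.1% of tested genes. The median difference of the list was 0.21, -0.24 and 0.10 in pools 17, 18 and 28, the order in which RRM2B itself lay at 0.42, -0.15 and 0.19. ZMAT3, an RNA-binding protein gene, stood at 15.5, 21.8 and 32.3 FPKM in the control group and at 10.9, 10.5 and 13.1 in the resistant group (-0.90, adjusted p = 0.240). PHLDA3, an inhibitor of AKT signalling, differed by 0.97 (adjusted p = 0.335).

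Among the one-carbon enzymes, the cytosolic SHMT1 had its high value in 1 library. It stood at 8.06, 7.36 and 6.65 FPKM in the control group and at 7.10, 20.4 and 7.46 in the resistant group. Resistant 18 was 2.54 times the highest control, and the other resistant libraries lay inside the range of the controls. Without resistant 18 the log2 difference of 0.45 (SE 0.37, adjusted p = 0.643) became -0.011, and without resistant 17 it was 0.69.

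SHMT2, the mitochondrial isoenzyme, had the highest control mean of the 9 genes. It stood at 388, 436 and 332 FPKM in the control group and at 425, 309 and 323 in the resistant group (-0.14, SE 0.22, adjusted p = 0.832). The difference was -0.28 without resistant 17 and -0.24 without control 28, and it was -0.047 without resistant 18, -0.081 without resistant 28 and -0.042 without control 18. Resistant 18 was the lowest library for SHMT2 and the highest for SHMT1, and the ratio of SHMT2 to SHMT1 was 15.1 there against 43.4 to 59.96 in the other 5 libraries. The groups overlapped for each gene and for the ratio.

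MTHFD1, the cytosolic enzyme with 3 folate activities, stood at 28.3, 36.6 and 34.8 FPKM in the control group and at 28.7, 65.3 and 23.8 in the resistant group. It was 1.78 times the highest control in resistant 18 and lowest in resistant 28, as RRM1 and RRM2 were. The pooled difference was 0.10 (SE 0.36, adjusted p = 0.934), and -0.33 without resistant 18. It was -0.0069 without control 17, and 0.17 without control 18, 0.25 without resistant 17 and 0.38 without resistant 28. MTHFD2, the mitochondrial enzyme that is high in many dividing cells, stood at 318, 281 and 272 FPKM in the control group and at 325, 469 and 299 in the resistant group (0.30, SE 0.23, adjusted p = 0.605). It was higher in all 3 pools, but in pool 17 the difference was only 0.029. Without resistant 18 the value over the pools was 0.11.

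In order of their mean in controls, levels ran from SHMT2 (386 FPKM) and MTHFD2 (290) through TYMS (62.0), RRM1 (47.4), MTHFD1 (33.2), DUT (30.3) and RRM2B (26.1) to RRM2 (10.6) and SHMT1 (7.36). The control ranges of TYMS and RRM1 overlapped, as did those of MTHFD1 and DUT and of DUT and RRM2B, so the order within these pairs is not fixed by 3 libraries. By the mean of the resistant group TYMS, at 23.4 FPKM, lay below RRM1, MTHFD1, DUT and RRM2B. This order did not hold in each library. In resistant 28, TYMS (25.1) was above MTHFD1 (23.8) and close to RRM1 (25.9). The mitochondrial enzyme exceeded its cytosolic partner in every library, with MTHFD2 over MTHFD1 at 7.66 to 11.3 in controls and 7.18 to 12.6 in resistant libraries.

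Of the 9 genes, 5 were thus highest in resistant 18 (RRM1, RRM2, SHMT1, MTHFD1 and MTHFD2), against 35.4% of tested genes, and 3 were lowest there (TYMS, RRM2B and SHMT2), against 25.3%. RRM1, RRM2 and MTHFD1 were lowest in resistant 28, 3 of 9 against 17.4% of tested genes. These same 3 were above 0.5 in pool 18 and below -0.5 in pool 28, a combination found in 2.01% of tested genes and in 7 of 36 genes of S phase and replication. The combination was not planned beforehand and follows the pattern of these 3 genes, so its share is a description only. By size, RRM1 and SHMT1 were above 1 in pool 18 (5.41% of tested genes) and TYMS was below -1 there (7.24%), while TYMS and RRM2 were below -1 in pool 28 (4.02%). With trends of GC content and length removed, RRM1 was at 0.94 in pool 18 and RRM2 at -0.97 in pool 28. SHMT1 and TYMS stayed beyond 1 in these pools. None of the 9 was above 1 in pool 28 (4.06% of tested genes), or beyond 1 in pool 17 in either direction (2.45% above and 1.72% below). With 1 library per pool and group these counts have no test.

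A list of 36 genes of S phase and DNA replication, none of them among the 9, was read beside them because TYMS, RRM1, RRM2 and DUT are known to be expressed mainly in S phase. Its median differences were -0.10, 0.87 and -0.28 for pools 17, 18 and 28, with 35 of 36 genes higher in pool 18, against 53.4% of tested genes. In pools 17 and 28, 15 and 10 of them were higher, against 47.2% and 49.3%. In bulk RNA, fewer cells in S phase and less of each RNA per cell cannot be told apart, and the part of the cell cycle in the values of the 9 genes was not tested. In this list 0 genes passed and 1 had an unadjusted p under 0.05, against 13.1% of tested genes. That gene, the replication licensing factor CDT1, stood at 35.4, 41.8 and 34.6 FPKM in the control group and at 28.9, 27.8 and 15.9 in the resistant group (-0.64, adjusted p = 0.347). CHAF1A, a subunit of the chromatin assembly factor, differed by 0.61 (adjusted p = 0.394).

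TYMS lay below all 36 of these genes in each pool. The lowest of them differed by -0.70, -0.57 and -1.08 in pools 17, 18 and 28, where TYMS had -0.81, -1.83 and -1.38. In pool 18 the list was high and TYMS was low in the same library. Relative to the median of the list, TYMS was higher by 1.27, 1.73 and 1.75 on the log2(FPKM + 1) scale in controls 17, 18 and 28, by 0.66 in resistant 17 and 0.87 in resistant 28, and it was below the median by 0.80 (-0.80) in resistant 18. MTHFD1 lay 0.61 to 0.83 above the median of the list in controls and 0.80 to 0.86 above it in resistant libraries. RRM1 had a wider range, 1.02 to 1.42 above it in controls and 0.92 to 1.45 in resistant libraries. In pools 17, 18 and 28, 30, 12 and 34 of the 36 genes had a larger difference than RRM1, and 5, 20 and 36 had a larger one than RRM2. DUT was below 34 of the 36 in pool 18 and above all 36 in pool 28, and SHMT1 was nearer to the median of the list in each resistant library (-1.04, -0.77 and -0.75) than in any control (-1.43 to -1.08). The groups were barely apart here, and the share of all tested genes apart on this measure was not computed. The list median itself was 4.26 and 4.33 in controls 17 and 28, and 4.06 and 3.83 in resistant 17 and 28. In FPKM the SHMT1 groups overlapped.

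**Figure D3:**
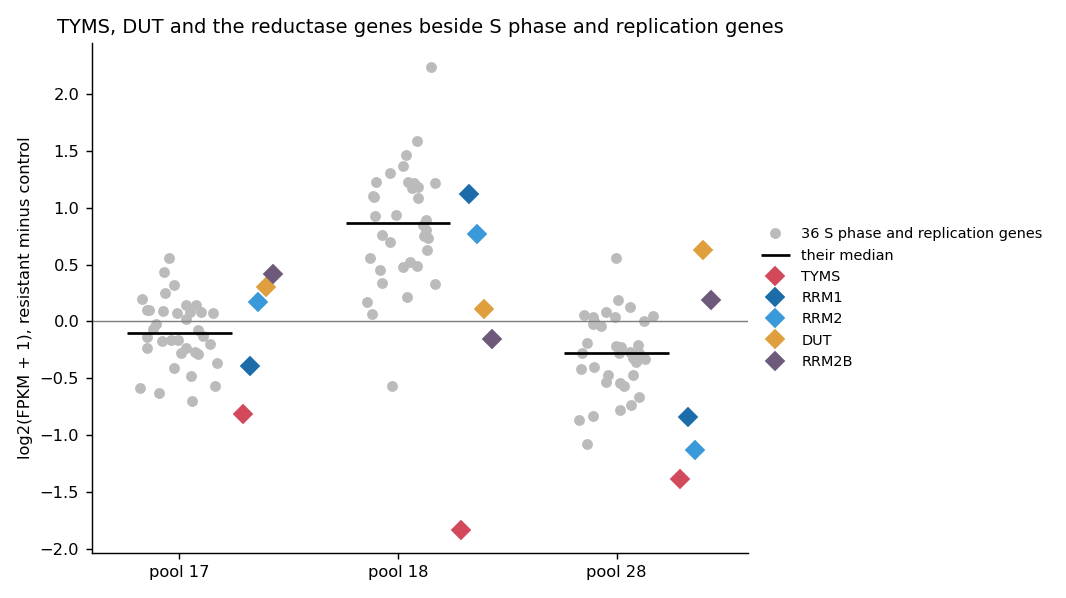
Difference between resistant and control libraries on the log2(FPKM + 1) scale (vertical axis) in each pool: grey points are 36 genes of S phase and replication, black lines their medians (-0.10, 0.87 and -0.28), and diamonds TYMS, DUT and the reductase genes. TYMS is below every grey point in each pool, including pool 18, where 35 of 36 points are above 0.

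TK1, the thymidine kinase that salvages thymidine in S phase, had 23.4, 28.2 and 15.3 against 33.4, 57.0 and 15.5 FPKM (0.50, adjusted p = 0.676). It was higher in all 3 pools, by only 0.02 in pool 28, and the groups overlapped. The difference was 0.075 without resistant 18, 0.27 without control 28 and 0.98 without resistant 28.

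The ratios of TYMS to DUT and to TK1 separated the groups. TYMS over DUT was 1.39, 2.14 and 2.81 in controls 17, 18 and 28 and 0.625, 0.535 and 0.670 in resistant libraries. TYMS over TK1 was 1.93 to 4.37 in controls and 0.351 to 1.61 in resistant libraries. These ratios share the TYMS values, were chosen with its low values known and are given as descriptions.

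**Figure D4:**
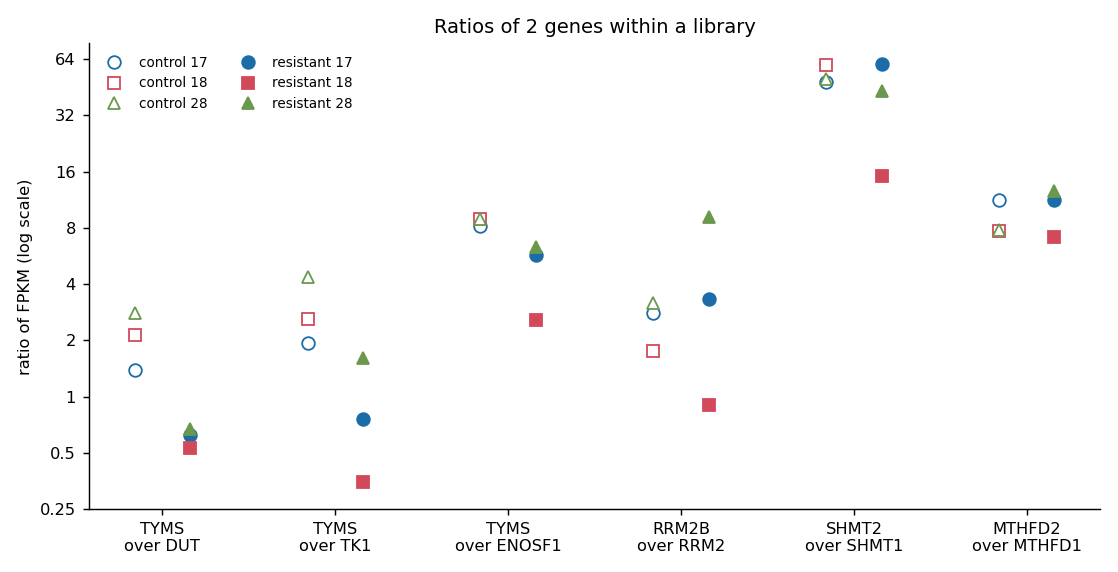
Ratios of FPKM of 2 genes within each library (vertical axis, log scale); open symbols are controls and filled symbols resistant libraries, with a shape and colour for each pool. The 3 ratios with TYMS on top do not overlap between groups, for example 1.39 to 2.81 against 0.535 to 0.670 for TYMS over DUT, and the other 3 ratios do.

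The other folate enzymes and carriers had 15 tested genes, with a median of -0.07. Of these, 0 passed and 1 had an unadjusted p under 0.05, against 13.1% of tested genes. MTHFD2L, a mitochondrial relative of MTHFD2, stood at 2.73, 2.65 and 2.41 FPKM in the control group and at 1.999, 1.25 and 1.07 in the resistant group (-0.58, adjusted p = 0.286). MTHFD1L, the mitochondrial formate-producing synthetase, had 91.8, 91.9 and 96.6 against 72.4, 77.4 and 69.4 FPKM (-0.35, adjusted p = 0.384). For both, which were named for their small p, all resistant libraries were below all controls, as in 11.1% of tested genes. Glycine cleavage and serine synthesis had 8 tested genes, 0 of which passed or had an unadjusted p under 0.05. There PSPH, the last enzyme of serine synthesis, differed by 0.24 and AMT, a glycine cleavage enzyme, by -0.53 (adjusted p = 0.561 and 0.522).

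The 14 tested genes of thymidine and deoxynucleotide handling had a median of 0.20. Of these, 0 passed and 2 had an unadjusted p under 0.05, against 13.1% of tested genes. TYMP, which breaks thymidine down, stood at 11.7, 13.2 and 12.9 FPKM in the control group and at 20.4, 14.7 and 29.6 in the resistant group (0.68, adjusted p = 0.322). DCTD, the deaminase that turns dCMP into dUMP, the substrate of thymidylate synthase, had 50.3, 54.5 and 52.1 against 37.9, 36.5 and 45.0 FPKM (-0.39, adjusted p = 0.360). Their resistant libraries lay wholly above the controls for TYMP (10.1% of tested genes) and wholly below for DCTD (11.1%). SAMHD1, the hydrolase of deoxynucleotide triphosphates, was low, with 1.88 to 2.30 FPKM in controls and 2.56 to 2.80 in resistant libraries (0.26, adjusted p = 0.493).

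Purine synthesis, another user of the one-carbon pool, and pyrimidine synthesis had 12 and 5 tested genes. In each, 0 passed and 1 had an unadjusted p under 0.05, against 13.1% of tested genes. The purine genes had medians of -0.10, 0.61 and -0.29 in pools 17, 18 and 28. The S phase list had the same signs, but so did the pyrimidine genes (-0.10, 0.19 and -0.13) and all tested genes (-0.03, 0.05 and -0.0065). ADSS, which makes the precursor of AMP, stood at 22.03, 21.8 and 16.8 FPKM in the control group and at 34.0, 32.95 and 25.4 in the resistant group, a nearly equal difference of 0.61, 0.57 and 0.57 in the 3 pools (0.58, adjusted p = 0.286). PFAS, a purine ring synthesis enzyme, differed by 0.82 (adjusted p = 0.393). Among the pyrimidine genes, DHODH, the mitochondrial dehydrogenase of the pathway, differed by 0.71 (adjusted p = 0.286) and UMPS, which completes UMP, by 0.28 (adjusted p = 0.631).

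Genes beside TYMS on chromosome 18 were examined in the order of RefSeq on GRCh38.p14. The 14 tested neighbours, 4 on the side of the chromosome end and 10 on the other, had median differences of -0.13, 0.06 and -0.19 in pools 17, 18 and 28. Nearest to TYMS, C18orf56 differed by -0.29, -0.99 and -0.14 and ENOSF1 by -0.26, -0.08 and -0.77. Both overlap TYMS on the opposite strand in the annotation (C18orf56 under its RefSeq symbol TYMSOS), and whether counting used strand is not given in the sources used here, so reads in the shared stretches cannot be assigned. ENOSF1 had 5.50 to 8.27 FPKM in controls and 3.96 to 7.76 in resistant libraries, far less than TYMS, and TYMS over ENOSF1 was 8.21 to 8.97 in controls and 2.58 to 6.33 in resistant libraries. USP14, a deubiquitinase of the proteasome lying 3 tested genes before TYMS, differed by -1.19, -1.62 and -1.88 (-1.56 over the pools, adjusted p = 0.0656), while THOC1 between them differed by 0.24, -0.08 and 0.12.

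SHMT1 lies on chromosome 17 among genes that were also higher in resistant 18. Of its 20 tested neighbours, from TOM1L2 to SPECC1, 15 were higher in pool 18, where 53.4% of all tested genes were, and 8 were higher in each of pools 17 and 28. Their median was 0.50 in pool 18, and 0.51 once trends of GC content and length were removed, against -0.14 and -0.09 in the other pools. SHMT1 itself, at 1.36, was above that median. For the other 8 genes the neighbours' median in pool 18 lay between -0.16 and 0.29, with DUT the highest, so RRM1, RRM2 and MTHFD1 were high in pool 18 beside neighbours at -0.02, 0.15 and 0.10. The part of the neighbourhood in these values was not tested. SHMT1, SHMT2, MTHFD1 and MTHFD2 each overlap a gene on the opposite strand (SMCR8, NDUFA4L2, ZBTB25 and SLC4A5), with the same limit on assigning reads as for TYMS. RRM1 and DUT also overlap annotated antisense genes, and RRM2 overlaps an annotated gene on its own strand. These partners have no values in the libraries, and the limit holds there too.

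**Figure D5:**
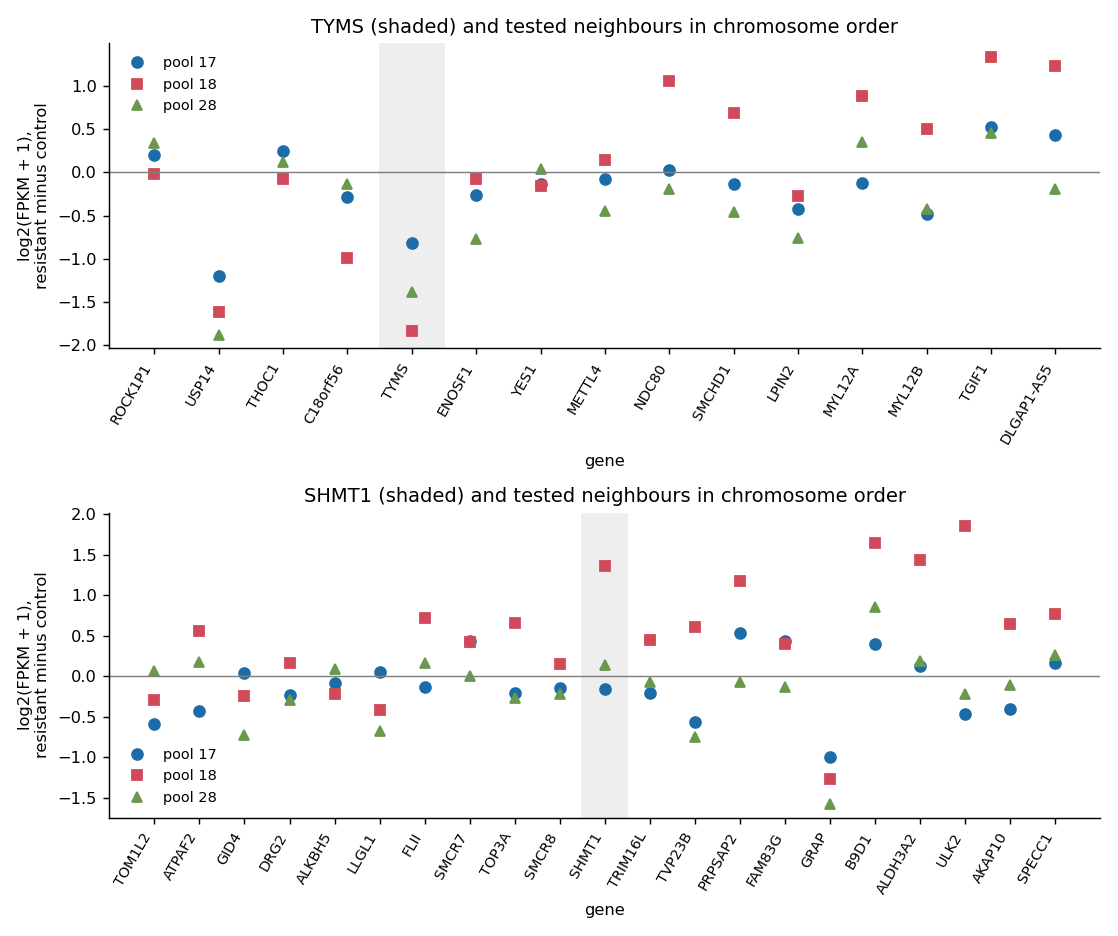
Difference between resistant and control libraries on the log2(FPKM + 1) scale (vertical axes) for TYMS and SHMT1 (shaded) and up to 10 tested neighbours on each side, in chromosome order. Beside TYMS, USP14 is low in all pools while THOC1 lies near 0, and beside SHMT1 15 of 20 neighbours are above 0 in pool 18.

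The genes whose pattern over the 6 libraries was most like that of a member were found by the distance between log2(FPKM + 1) values centred on each gene's mean. Nearest to TYMS were PTP4A1, a phosphatase gene (distance 0.29), the transcriptional corepressor gene CBFA2T3 (0.32) and PCBP1, which encodes an RNA-binding protein (0.42), and 15 genes lay within 0.5. The nearest to RRM1 were POLR2B, PAICS and HELLS (0.22 to 0.24), with 97 within 0.5, and PAICS is the purine synthesis gene that differed by -0.11, 1.14 and -0.998 in pools 17, 18 and 28. The nearest to RRM2 were the histone genes HIST1H2BL and HIST1H2BM and the small RNA gene SCARNA1 (0.44 to 0.497). For SHMT1 they were SUPT4H1, FOXRED1 and EAF2 (0.14 to 0.18), and for MTHFD1 TMEM106C, UBE2N and the cyclin gene CCNE1 (0.14 to 0.18). Among the 9 genes themselves, RRM1 and MTHFD1 were closest (0.54), and TYMS was at least 1.61 from each of the others. These distances rest on 6 libraries.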

How the data were processed

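RNA of 6 libraries, 3 control and 3 fludarabine-resistant pools, was measured by sequencing. The authors deposited FPKM, 1 value for each of 23619 gene symbols per library, per the file headers, with commas as decimal marks. The genome build was hg19 and the tools named were HTSeq 0.6.1, DESeq2, Cufflinks 2.2.1 and TopHat2 2.0.4, per the submitters' processing notes, which here give neither their roles nor the annotation. Counts were not analysed here, so no count model was fitted, absolute depth is unknown and no counting interval is given. Relative depth came from ratios of low FPKM (tolerance 0.02 on the log2 scale). The files listed 0 pseudogene rows named after the 9 genes.

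Genes with FPKM of at least 1 in at least 3 libraries were compared with limma 3.58.1 (R 4.3.3) after taking log2(FPKM + 1) (mean-variance trend, two-sided, Benjamini-Hochberg over 11307 genes, threshold 0.05). The pseudocount of 1 shrinks differences of low genes. The script was tested on simulated data with planted differences larger than that of any of the 9 genes. Recovery of smaller differences was not tested. Same-numbered libraries deviated from their group means with correlations of 0.148, 0.0892 and -0.0243 in pools 17, 18 and 28. Differently numbered libraries had correlations from -0.207 to 0.173, so the pool number served as a block only in an alternative. Differences by pool pair the libraries by their number alone. GC content and length came from GENCODE v29 for 87.8% of tested genes, and gene order from RefSeq for 98.2%. The genes and the 8 related lists (109 tested genes) were chosen with earlier results of these data known. Named are all 9 genes, TK1, ENOSF1 and SAMHD1 (1 further gene of the rule is not reported here), up to 3 passing genes per direction of each list or else the 2 of smallest p, and the 3 nearest genes of each member whose range exceeded 1; USP14, THOC1, EPCAM, GADD45A, ALDH1L2 and MTFMT were chosen after their values were seen. The 19 alternatives changed the pseudocount, filter, scaling, weights, block and GC or length trends, or left out a library or pool.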

Additional observations from a re-analysis of the deposited data

How the results depend on the processing

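The count of the 9 genes past the threshold stayed at 0 in all alternatives except library weights, where it was 1 (TYMS), the count over all tested genes was 301 and that of the related lists was 1 (GADD45A, the p53 target). Over all tested genes 2 passed with GC and length trends removed and 0 in limma with the replicate block as well (1514 with an unadjusted p under 0.05), and 3 to 13 when 1 library was left out (8 without resistant 17, 13 without resistant 18), with 18 without pool 18 in both groups. With the pool number as replicate block alone 3 passed, TYMS had an adjusted p of 0.215, and no call among the 9 genes changed. TYMS stayed between -1.61 and -1.10 when a library or pool was left out (adjusted p from 0.0967 to 0.923) and between -1.43 and -1.21 otherwise (0.0321 to 0.340). RRM2 turned to 0.012 with a pseudocount of 5, and MTHFD1 to -0.28 with library weights. Leaving out 1 library moved RRM1 from -0.57 to 0.37, RRM2 from -0.67 to 0.53, SHMT1 from -0.011 to 0.69 and MTHFD1 from -0.33 to 0.38, and leaving out pool 17, 18 or 28 in both groups moved RRM1 to 0.14 (17) and 0.37 (28), RRM2 to 0.47 (28), SHMT1 to -0.0086 (18), SHMT2 to 0.046 (18) and MTHFD1 to -0.25 (18). These have fewer libraries by construction, and the other causes were not tested. DUT, RRM2B and MTHFD2 stayed above 0 in all 19, at 0.19 to 0.47, 0.017 to 0.35 and 0.084 to 0.44 when a library or pool was left out. With FPKM alone, counting error cannot be separated from the spread of 3 libraries.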

Other observations

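A pair of folate genes stood out by their spread and are named after their values were seen. ALDH1L2, the mitochondrial enzyme that oxidizes formyl-folate to CO2, did not reach the filter and was not tested. It stood at 0.429, 1.62 and 1.94 FPKM in the control group and at 0.0257, 0.188 and 0.245 in the resistant group. MTFMT, which puts a formyl group on the initiator tRNA of mitochondria, stood at 206, 253 and 14.8 FPKM in the control group and at 43.7, 15.5 and 36.7 in the resistant group. Its controls thus differed among themselves by more than the groups did, with differences of -2.21, -3.95 and 1.25 in pools 17, 18 and 28 (adjusted p = 0.531).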
